A study of Mus musculus with 8 samples.

Results

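The 6 genes described here carry creatine through the cell: Gatm and Gamt make it, Slc6a8 imports it, and the kinases Ckb, Ckm and Ckmt1 charge it with phosphate. They are the rows with those symbols among 23337 genes of the deposited table, and all 6 were found. The set was chosen by a reading of the normalised reads in the same 6 libraries that are compared here. The data are RNA sequencing of cells sorted as endothelial from whole mouse embryos at E15.5. The labels name Cdh5-CreERT2(PAC);Rosa26fsTRAP mice, in which the endothelial Cdh5 promoter drives a tamoxifen-inducible Cre recombinase and the Rosa26 locus holds a Cre-dependent allele, while the genotype field of each sample reads wild type. In the tamoxifen group the drug was given by gavage to the pregnant female at E12.5, and the other group had no gavage. The design text gives both groups the same alleles. If they are present, tamoxifen and Cre activation cannot be told apart, and which of the 2 fields is right was not settled here. Further, the labels do not say whether samples of a group came from separate litters or embryos, so any p-value measures the spread between these libraries only. The labels list 8 samples, 4 per group, but the header of the table is 1 field shorter than its lines. The comparison therefore uses the 6 columns whose group is the same however the names are placed, 3 without tamoxifen and 3 with it, called libraries 1 to 3 of each group in table order. Column 6 belongs to the group without tamoxifen or to the tamoxifen group depending on the placement, and column 10 is a tamoxifen library or unnamed, so both are shown apart.

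Creatine is built from arginine and glycine by Gatm, the mitochondrial amidinotransferase that makes guanidinoacetate, which Gamt then methylates with S-adenosylmethionine. Slc6a8 is the sodium-dependent creatine transporter of the plasma membrane and, at the blood-brain barrier, of endothelium. Creatine kinases move phosphate between ATP and creatine, and the resulting phosphocreatine buffers ATP where demand changes fast. Ckb is the cytosolic brain-type subunit, Ckm the muscle-type subunit, and Ckmt1 the ubiquitous mitochondrial form, with Ckmt2 as its counterpart in striated muscle. Ckb is also known as the oestrogen-induced protein of the rat uterus, and tamoxifen binds the oestrogen receptor.

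Libraries of the 6 columns held 12212472 to 19908404 reads in genes, of which Rn45s, a ribosomal RNA precursor, made up 35.1% to 38.7% without tamoxifen and 29.4% to 33.7% with it. All 16 pan-endothelial markers were detected in each of the 6, with a summed level of 15471 to 24755 normalised reads without tamoxifen and 10439 to 26488 with it. The 12 macrophage markers in the table were as plainly present, at 46865 to 54272 and 35683 to 56752, and none was at 0 in a library. Values therefore describe a mixed sort, and in bulk samples fewer cells of a type and less RNA per cell cannot be told apart. Mesenchymal markers set 2 tamoxifen libraries apart, with sums of 60564 and 93903 in libraries 1 and 2 against 4994 in library 3 and 2253 to 4843 without tamoxifen.

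The 250 bases before the annotated start are shown for Gatm, the member whose groups stood furthest apart, and for the cytosolic kinases Ckb and Ckm, which stood far apart in level although both encode cytosolic creatine kinase subunits. They are RefSeq sequences of GRCm38.p6, read 5′ to 3′ in the direction of transcription. Their starts are those of RefSeq, whereas the gene limits given further on are the outermost of all GENCODE transcripts, so the Ckm window lies inside those limits and the Gatm window overlaps them at its last bases. Capitals mark matches on either strand to the TATA box (searched as TATAAA), the CCAAT box, the GC box (searched as GGGCGG) and the E-box (searched as CAGCTG), with no overlap between matches.
Gatm: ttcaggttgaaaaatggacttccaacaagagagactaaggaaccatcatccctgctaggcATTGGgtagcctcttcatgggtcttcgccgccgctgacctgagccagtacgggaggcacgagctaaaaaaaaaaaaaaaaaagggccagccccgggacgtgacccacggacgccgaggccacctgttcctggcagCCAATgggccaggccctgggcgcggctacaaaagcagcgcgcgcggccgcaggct
Ckb: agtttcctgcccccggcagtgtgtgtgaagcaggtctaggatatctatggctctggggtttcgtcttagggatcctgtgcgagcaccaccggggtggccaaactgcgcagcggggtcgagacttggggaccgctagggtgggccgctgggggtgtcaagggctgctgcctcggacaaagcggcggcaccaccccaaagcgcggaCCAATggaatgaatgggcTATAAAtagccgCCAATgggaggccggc
Ckm: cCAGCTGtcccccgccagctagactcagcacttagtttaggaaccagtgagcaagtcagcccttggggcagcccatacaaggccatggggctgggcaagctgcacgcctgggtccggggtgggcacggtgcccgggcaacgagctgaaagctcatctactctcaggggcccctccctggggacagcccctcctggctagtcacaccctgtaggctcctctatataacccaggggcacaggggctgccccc
The Gatm window is chr2:122611278-122611527 on the minus strand, and its matches are CCAAT at -55 to -51 and the reverse complement ATTGG at -190 to -186, counted from the start. The Ckb window is chr12:111672339-111672588 on the minus strand, with TATAAA at -28 to -23 and CCAAT at -46 to -42 and at -16 to -12. The Ckm window is chr7:19410844-19411093 on the plus strand. Of the motifs searched it holds only CAGCTG, the palindromic E-box, at -249 to -244. The search asked for exact letters, so near matches, such as the stretch tatataa near the end of the Ckm window, are not marked. CCAAT occurs in 33.8% of all 32851 windows of this length, TATAAA in 12.4%, CAGCTG in 13% and GGGCGG in 32.7%. The oestrogen response element, searched as GGTCA and TGACC with 3 bases between (0.0639% of windows), and the heat shock element, searched on both strands as GAA, TTC and GAA with 2 bases between neighbours (0.466%), were not in the windows of Gatm, Gamt, Ckb, Ckm or Ckmt1, the 5 members with a window in the table.

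Gatm, the first enzyme of creatine synthesis, was lower in every tamoxifen library than in every library without tamoxifen. It had 2001, 2382 and 2575 normalised reads without tamoxifen and 1278, 1324 and 1302 with it. The tamoxifen libraries lay close together, well under the lowest library without the drug. The means were 2319 ± 292 and 1301 ± 23.4 (SD, n = 3 each), a fold of 0.564 with a 95% interval of 0.470 to 0.677, or a log2 difference of -0.83 ± 0.11 (SE) in the limma fit across all genes on log2(normalised reads + 1). These values are a description without a test, because the 6 genes were chosen with the same contrast known. Of all 13480 genes tested, 133 had a log2 difference as low as that of Gatm or lower. The groups lay apart with tamoxifen lower for 1027 genes, or 7.62%, and with tamoxifen higher for 6.24%. Gatm (ENSMUSG00000027199.14) lies on chromosome 2 at 122594467 to 122611303, minus strand of GRCm38, and overlaps no other annotated gene. Each value rests on 1247 to 3384 reads.

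**Figure D1:**
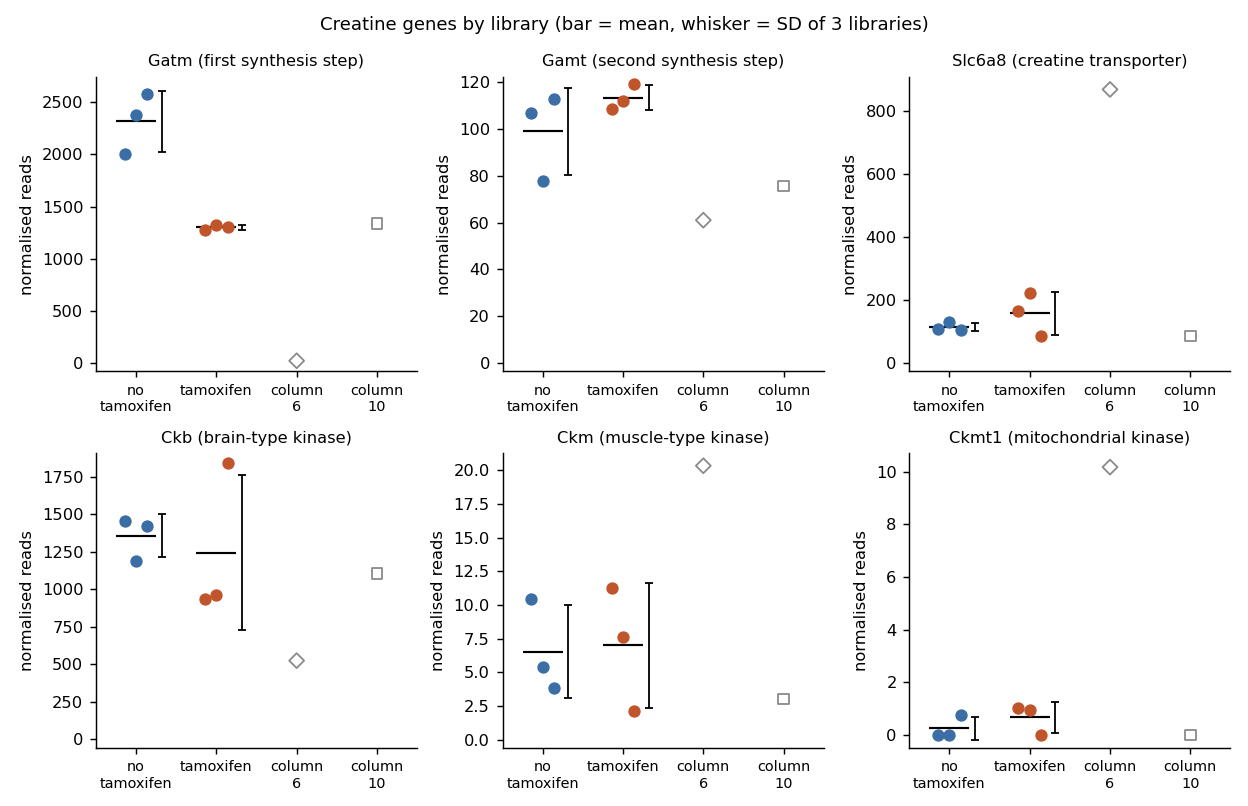
Normalised reads of the 6 genes (vertical axes, linear, each its own scale) in the 3 libraries without tamoxifen, the 3 with it, and columns 6 and 10 shown apart; horizontal bars are means and whiskers SDs of 3 libraries. For Gatm the 3 tamoxifen libraries sit between 1278 and 1324, below all 3 without tamoxifen, and column 10 sits with them at 1337, while the groups overlap for the other 5 genes.

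Column 10 was not among the columns that chose the genes, and its Gatm value was 1337 normalised reads, below each library without tamoxifen. Among the 1027 genes with the same separation, column 10 also lay below each library without tamoxifen for 51.8%. Column 6 had 24.4 normalised reads of Gatm, from 12 reads, with an exact Poisson 95% interval of 12.6 to 42.6 for counting error only. The same column held 856 normalised reads of the macrophage markers in sum and 484081 of the mesenchymal markers. Its place decides the sign of the Gatm difference: placing the names on the last 8 value columns, where column 6 counts as without tamoxifen, gave a log2 difference of 0.81 ± 1.41 (SE), and placing them on the first 8 gave -2.25 ± 1.42.

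None of the 4 testable members passed an adjusted p of 0.05 in limma with Benjamini-Hochberg adjustment over all 13480 genes, where 6 genes, or 0.0445%, did, all 6 of them higher. Nothing is read from this count, since the genes were chosen with this contrast known. Without adjustment, 659 higher and 556 lower genes had p under 0.05. edgeR on recovered reads called 5 genes (0.0371%), again without a member, and DESeq2 called 275 (2.04%), with Gatm among its 28 lower calls (0.208% of genes) and no member among the 1.83% called higher. Gatm was also called lower by limma with column 10 added to the tamoxifen group, where 0.0668% of genes were called, 0.00742% lower and 0.0593% higher. The same held with tamoxifen library 3 and column 10 as the treated group, where 4.35% were called, 3.29% lower and 1.06% higher. It also held with the library number as a block, where 0.156% were called, 0.00742% lower and 0.148% higher. Nothing is read from these calls of Gatm either, since column 10 aside they rest on the values that chose the genes.

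Several marker lists moved with the Gatm difference. The 4 Y-linked genes summed to 631, 118 and 490 normalised reads without tamoxifen and to 861, 1067 and 1000 with it, and 4 of 4 had groups apart. Xist and Tsix, the RNAs of the X inactivation centre, summed to 17816 to 28492 and to 8079 to 13708, with 2 of 2 apart. The 12 heat shock genes summed to 54879 to 66997 and to 150564 to 230943, with 11 of 12 apart and 5 called higher. Of all tested genes, 6.24% had groups apart with tamoxifen higher, 7.62% had them apart with tamoxifen lower, and 0.0445% were called. The share of Rn45s was also lower in each of the 3 tamoxifen libraries than in each without tamoxifen, and it was 32.6% in column 10. Mesenchymal markers were far higher in tamoxifen libraries 1 and 2 than in library 3. Their sum of 4994 in library 3 was just above the 2253 to 4843 without tamoxifen. Of the 12 mesenchymal genes 5 had groups apart, with tamoxifen higher. Macrophage markers were negative in 12 of 12 genes, against 53.5% of all tested genes. Their median log2 difference was -0.27, with 0 of 12 called. Their sum was 37595 and 35683 in tamoxifen libraries 1 and 2 and 56752 in library 3. The part of sex makeup, the heat shock response, Rn45s and cell makeup in the Gatm values was not tested.

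Gamt, the methyltransferase that completes creatine, showed no such separation. It had 107, 77.8 and 113 normalised reads without tamoxifen and 109, 112 and 119 with it, so the groups overlapped and library 2 without tamoxifen was the low one. The log2 difference was 0.21 ± 0.20 (SE), a fold of 1.16 with an interval of 0.840 to 1.59. Column 10 was at 75.5 and column 6 at 61.0, both below all 6 libraries. Per kilobase of exon, the Gatm level was 9.02, 14.7 and 11 times the Gamt level without tamoxifen and 5.66, 5.68 and 5.26 times with it. Column 10 had a Gatm to Gamt ratio of 8.52, between the groups, and column 6 one of 0.192. Gamt (ENSMUSG00000020150.13) lies on chromosome 10 at 80258151 to 80261012, minus strand, with no overlapping gene.

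Slc6a8, the creatine transporter, differed among the tamoxifen libraries more than between the groups. Its values were 109, 131 and 105 normalised reads without tamoxifen and 165, 222 and 87.7 with it. Tamoxifen libraries 1 and 2 were above all 3 libraries without tamoxifen and library 3 was below them, so the groups overlapped. The means were 115 ± 13.8 and 158 ± 67.6 (SD, n = 3 each), with a log2 difference of 0.36 ± 0.32 (SE) and a fold of 1.29 with an interval of 0.778 to 2.13. Column 10, at 86.9, was close to tamoxifen library 3. With tamoxifen library 3 and column 10 as the treated group the log2 difference was -0.39 ± 0.21 (SE), and with library 3 left out it was 0.74 ± 0.21. Slc6a8 (ENSMUSG00000019558.14) lies on the X chromosome at 73673150 to 73682502, plus strand, with no overlapping gene.

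Ckb, the brain-type kinase, split the same libraries the other way. It had 1455, 1190 and 1421 normalised reads without tamoxifen, and 932, 960 and 1838 with it. Libraries 1 and 2 with tamoxifen lay below every library without tamoxifen and library 3 lay above every one. The means were 1356 ± 144 and 1243 ± 515 (SD, n = 3 each), with a log2 difference of -0.19 ± 0.25 (SE) and a fold of 0.874 with an interval of 0.592 to 1.29. Column 10 had 1106 normalised reads and column 6 had 525. With tamoxifen library 3 left out the log2 difference was -0.51 ± 0.13 (SE), and with it as the only tamoxifen library the value was 0.44 ± 0.17, whose SE rests on the spread of the 3 libraries without tamoxifen alone. Without library 3, 3 of the 4 members passed the limma threshold, Gatm and Ckb lower and Slc6a8 higher, in a fit where 10.7% of all genes passed, 3.48% lower and 7.22% higher. Nothing is read from these calls, since they rest on the values that chose the genes. Ckb (ENSMUSG00000001270.9) lies on chromosome 12 at 111669361 to 111672338, minus strand, with no overlapping gene.

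Marker levels followed the same split of the tamoxifen libraries in some lists and not in others. Cartilage markers summed to 19065 and 16284 normalised reads in tamoxifen libraries 1 and 2 against 934 in library 3 and 721 to 1084 without tamoxifen. Endothelial markers summed to 25599, 26488 and 10439 in the same 3 libraries, and macrophage markers to 37595, 35683 and 56752. Brain endothelial markers, the list closest to the known barrier site of Slc6a8, summed to 10501, 11944 and 11191 and to 9720 to 12388 without tamoxifen, but Slc7a5 and Slc3a2, a pair of amino acid transporter subunits, made up most of that sum. The mean log2(normalised reads + 1) over the list was 7.86, 7.81 and 6.38 in tamoxifen libraries 1 to 3 and 6.03 in column 10, against 7.17 to 7.74 without tamoxifen, so it split the tamoxifen libraries as Slc6a8 did. Of its 13 tested members 10 were negative and 0 called, with a median log2 difference of -0.27. Among all tested genes 53.5% were negative and 0.0445% were called, so nothing is read from the counts called in this paragraph. Osteoclast markers, a lineage known for high Ckb, summed to 2056, 2110 and 1890 with tamoxifen and to 1843 to 2054 without it, with 0 of 7 called. Neural markers, a further lineage known for Ckb, summed to 1146, 1414 and 781 and to 945 to 1668, with 0 of 4 called and Snap25 at 0 in 4 of the 6 libraries. Nfatc1 and Itgb3 made up most of the osteoclast sum, and Nes, at 922, 1185 and 692 with tamoxifen, most of the neural sum. The mean log2 over the osteoclast list was 5.17, 5.18 and 4.99 with tamoxifen, against 4.75 to 5.05 without it. Over the neural list it was 3.51, 3.38 and 2.40 in tamoxifen libraries 1 to 3, against 2.52 to 2.90 without tamoxifen. The part of any of these cell types in the Slc6a8 and Ckb values was not tested.

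**Figure D2:**
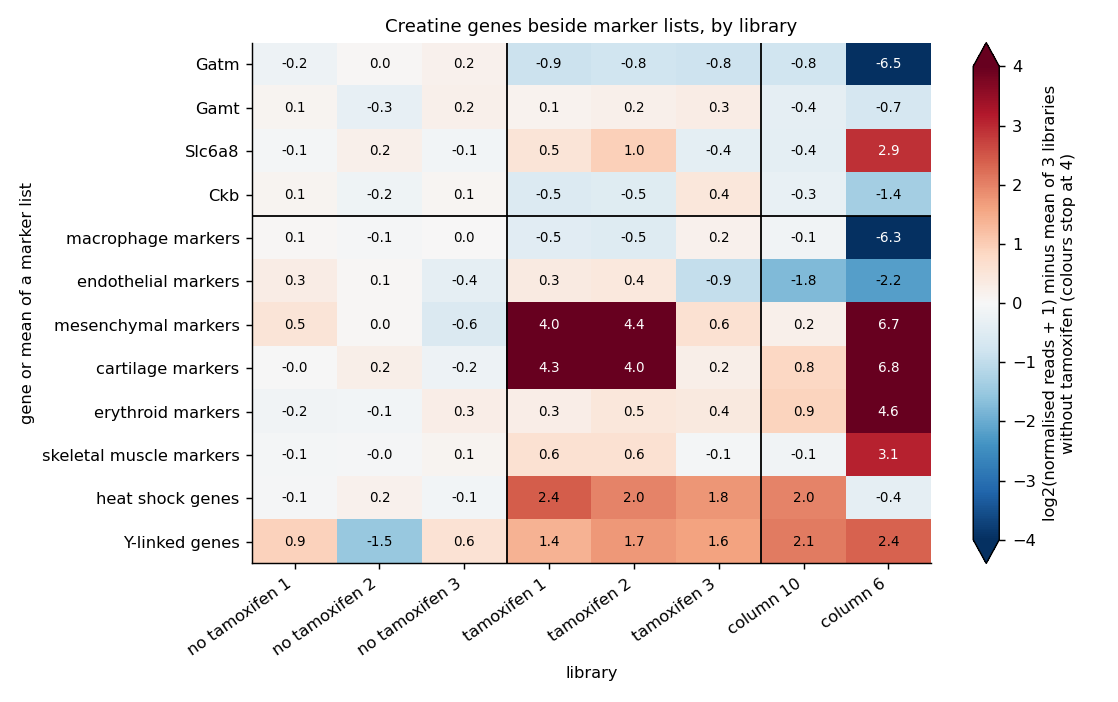
Colour and number give log2(normalised reads + 1) minus the mean of the 3 libraries without tamoxifen, for 4 genes above the line and for the mean over each marker list below it, in each library (colours stop at 4). Gatm is negative in all 3 tamoxifen libraries and in column 10, Slc6a8 and Ckb take opposite signs in tamoxifen libraries 1 and 2 and in library 3, and column 6 differs from every other column in most rows.

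Among the creatine kinases nearly all RNA was Ckb. Per kilobase of exon, Ckb made up 98.7% to 99.9% of the 4 kinase transcripts in the 6 libraries, Ckm 0.114% to 1.19% and Ckmt1 at most 0.126%. Ckm, the muscle-type subunit, had 10.4, 5.4 and 3.8 normalised reads without tamoxifen and 11.3, 7.60 and 2.10 with it, from 3 to 12 reads per library. The groups overlapped, and with a mean of 6.77 the gene was under the minimum of 10 for the test. Ckmt1 had 1 read in library 3 without tamoxifen and in tamoxifen libraries 1 and 2, and 0 in the other 3. Ckmt2, the sarcomeric mitochondrial form, had 0 reads in all 6, which allows up to 3 reads per library, or 2.10 to 3.24 normalised reads, while the upper end of the two-sided exact Poisson 95% interval was 2.59 to 3.99. No difference in these 3 kinases was detectable at this depth.

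Ckm and the skeletal muscle sum ranked alike among the tamoxifen libraries, both lowest in library 3, but not among those without tamoxifen. There library 1 had the highest Ckm value, 10.4, with the lowest sum, 354, and library 3 the lowest Ckm value, 3.80, with 367. The Ckm value of tamoxifen library 3 rests on 3 reads. Its exact Poisson interval, 0.434 to 6.15 normalised reads, overlapped that of every other library of the 6. The 23 skeletal muscle markers summed to 354 to 369 normalised reads without tamoxifen and to 520, 418 and 302 in the 3 tamoxifen libraries, with 2 to 6 markers at 0 per library and Myf5 at 0 in all 6. Of the 9 tested markers 0 were called, and Ttn, the giant sarcomere protein, was at 140 ± 4.68 and 137 ± 61.1 (SD, n = 3 each). Cardiac markers summed to 148 to 162 and 127 to 197, with 0 of 3 tested called. With 0.0445% of all tested genes called, nothing is read from these counts. The part of both muscle types in the Ckm reads was not tested. Ckm (ENSMUSG00000030399.2) lies on chromosome 7 at 19404776 to 19422841, plus strand, and overlaps the antisense gene A930016O22Rik. Ckmt1 (ENSMUSG00000000308.14) lies on chromosome 2 at 121357714 to 121363737, plus strand, and overlaps Strc on the other strand. The sources used here do not say whether counting used strand, so for these 2 genes reads of the partner cannot be told apart.

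Ordered by level per kilobase of exon, Gatm stood first without tamoxifen, at 667 to 858 normalised reads per kilobase, before Ckb at 411 to 503. With tamoxifen their ranges met, at 426 to 441 for Gatm and 322 to 635 for Ckb. Gamt followed at 53.9 to 78.0 without tamoxifen and 75.2 to 82.6 with it, and Slc6a8 at 20.2 to 25.1 and 16.8 to 42.7. Ckm was at 0.722 to 3.87 over the 6 libraries. Among 12217 tested genes with an annotated length, the mean level of Gatm was above that of 95.1% of genes, Ckb 93.0%, Gamt 54.4% and Slc6a8 29.2%. The order of the first pair depends on the length used: per kilobase of the longest coding transcript, which is 1472 bases for Ckb against 2895 bases of merged exons, Ckb was at 809 to 989 and Gatm at 838 to 1078 without tamoxifen, so their ranges met. With tamoxifen Ckb, at 633 to 1249, lay above Gatm, at 535 to 554, on that scale, and the Gatm to Ckb ratio was 0.844, 0.850 and 0.437.

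The pathways that feed and use creatine held no gene past the threshold, which 0.0445% of all 13480 tested genes passed. At that share, 0 calls in lists of this size is not read as a result about the pathways. The data held 24 other phosphagen genes (adenylate kinases, AMP deaminases, nucleoside diphosphate kinases, the mitochondrial ADP/ATP carriers and the outer membrane pores). Of these 19 were tested and 0 were called in either direction. Their log2 differences were negative for 17 of 19, with a median of -0.10, where 53.5% of all tested genes were negative and their median was -0.02. Vdac3, a pore of the outer mitochondrial membrane, had 792, 816 and 684 normalised reads without tamoxifen and 666, 642 and 666 with it. Its groups did not overlap, and the log2 difference was -0.21 ± 0.11 (SE, limma adjusted p = 0.599). The nucleoside diphosphate kinase Nme3 was at -0.31 ± 0.22, with overlapping groups (SE, limma adjusted p = 0.676). Slc16a12, a monocarboxylate transporter family member that carries creatine, had 2.6, 10.8 and 2.28 normalised reads without tamoxifen and 18.4, 8.55 and 4.91 with it, too few for the test.

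Genes of arginine and glycine supply were also without a call, with 18 of 21 tested, 9 positive and 9 negative, and a median of -0.02. With 0.0445% of all tested genes called, nothing is read from this count or from that of the methyl donor genes below. Arg1, the cytosolic arginase that splits arginine, had 37.3, 31.3 and 32 normalised reads without tamoxifen and 21.5, 14.3 and 20.3 with it. Its groups did not overlap, and the log2 difference was -0.83 ± 0.33 (SE, limma adjusted p = 0.519). The mitochondrial arginase Arg2 and the glycine decarboxylase Gldc, named after their values were seen because their groups also lay apart, were at -0.44 ± 0.23 and -0.54 ± 0.45. Oat, the ornithine aminotransferase, was the other gene of the list with groups apart, at 0.23 ± 0.11, and Dld, a dehydrogenase shared with the glycine cleavage system, was at -0.37 ± 0.16 (limma adjusted p = 0.572 and 0.550). The arginine transporter Slc7a1 and the serine synthesis enzyme Phgdh were among the 14 with overlapping groups. Of all tested genes, 7.62% had groups apart with tamoxifen lower and 6.24% with tamoxifen higher. The separations in this list were not tested against those shares. In the 20 genes of the methyl donor cycle, which supplies Gamt, 14 were tested, 0 were called and 9 were negative, with a median of -0.04. Cbs, the first enzyme of transsulfuration, had 6.94, 6.48 and 16.0 normalised reads without tamoxifen and 16.4, 25.7 and 18.2 with it, at 1.05 ± 0.49 (SE, limma adjusted p = 0.574). Mtr, the methionine synthase, was at -0.18 ± 0.12 and the amino acid transporter Slc43a2 at -0.21 ± 0.14.

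**Figure D3:**
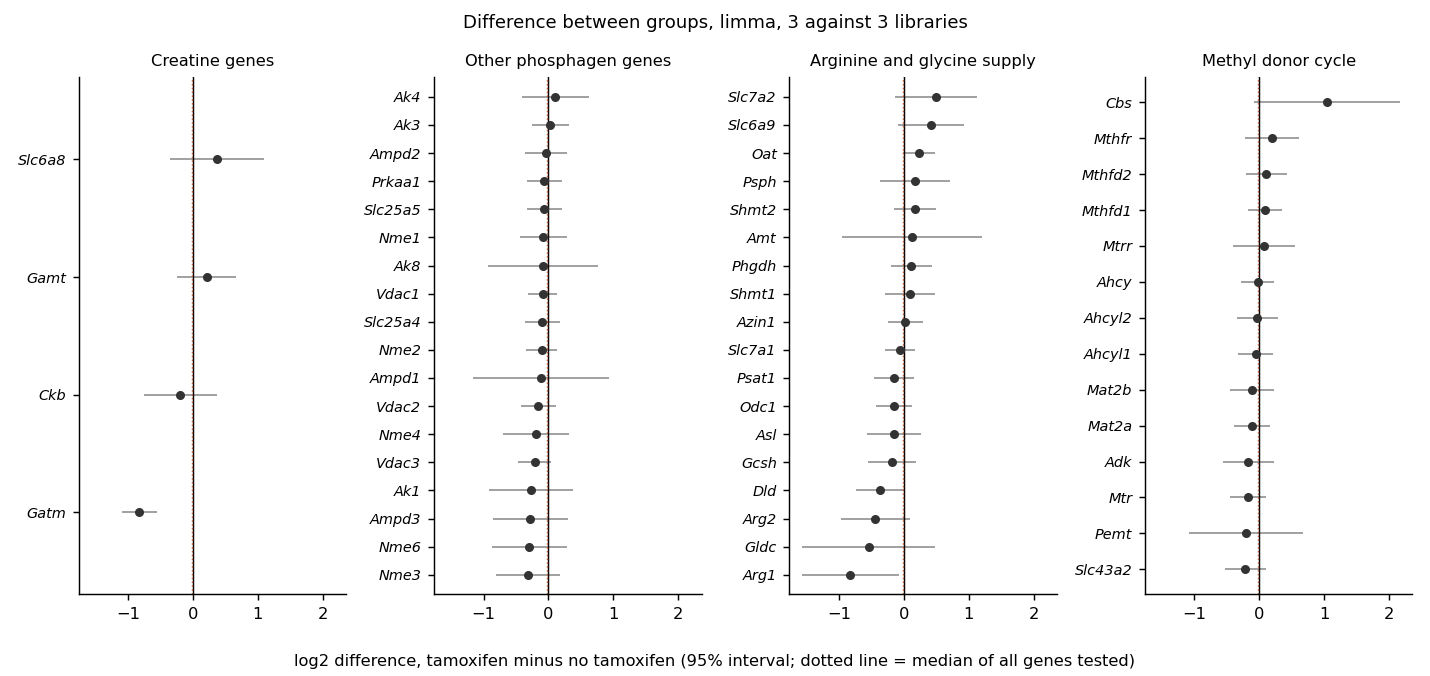
Log2 difference, tamoxifen minus no tamoxifen, with its 95% interval (horizontal axis) for the tested genes of the 4 lists, with 1 phosphagen gene not drawn, from the limma fit of 3 against 3 libraries; the dotted line is the median of all tested genes, -0.02. Gatm is at -0.83 with an interval of -1.09 to -0.56, the intervals of Gamt, Slc6a8 and Ckb include 0, and 16 of the 18 other phosphagen genes drawn lie below 0.

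The oestrogen-responsive list, set beside Ckb, had 16 tested genes, 12 positive and 0 called, with a median of 0.13. Hspb1, a small heat shock protein, had 33.0, 37.8 and 12.2 normalised reads without tamoxifen and 475, 329 and 110 with it, at 3.32 ± 0.58 (SE, limma adjusted p = 0.225). Gata3, a zinc finger transcription factor, was at 0.61 ± 0.27 (limma adjusted p = 0.550). Cxcl12, a chemokine, had 92.0, 92.9 and 51.7 normalised reads without tamoxifen and 384, 479 and 61.7 with it, at 1.55 ± 0.69 (limma adjusted p = 0.551). Its groups overlapped, and libraries 1 and 2 with tamoxifen were the high ones. Of 12 heat shock genes 5 were called higher with tamoxifen in the limma fit, where 0.0445% of all tested genes were called. Hspa1b, the inducible HSP70 chaperone, was at 924 normalised reads in column 6 and 56354 in column 10, against 1091 to 1618 without tamoxifen and 44218 to 78419 with it.

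The genes whose pattern over the 6 libraries was most like that of each member were taken by Pearson's r of log2(normalised reads + 1). The search covered 10237 genes with a mean of at least 50. It left out Rn45s and genes with Gm, Rik, LOC, BC, Mir or clone names. These correlations describe 6 libraries that share the group difference and their cell makeup, and carry no test. For Gatm they were Timd4 (r = 0.970), a phosphatidylserine receptor of resident macrophages, Clec12a (r = 0.959), a C-type lectin receptor of myeloid cells, and Ugt1a7c (r = 0.956), a glucuronosyltransferase. Timd4 had 134, 156 and 142 normalised reads without tamoxifen and 74.8, 68.4 and 75.7 with it, and 88.1 in column 10 and 2.03 in column 6. Clec12a had 810, 1079 and 1072 without tamoxifen and 678, 687 and 720 with it, and 917 in column 10, above library 1 without tamoxifen. Both were lower in each of the 3 tamoxifen libraries, as Gatm was, and 42 genes reached an r of 0.9 with Gatm. For Gamt the nearest was Fbxl19 (r = 0.988) and 128 genes reached 0.9. For Slc6a8 the nearest were Nov (r = 0.995), a matricellular protein, and Efnb1 (r = 0.993), an ephrin ligand, both high in tamoxifen libraries 1 and 2, and 270 genes reached 0.9. For Ckb they were Zc3h12a (r = 0.996), a ribonuclease that limits inflammatory transcripts, and Relb (r = 0.993), an NF-kB subunit, both highest in tamoxifen library 3, and 389 genes reached 0.9.

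The Gatm difference kept its sign and size when the scaling, filter or pseudocount changed. It ranged from -0.93 to -0.75 when any 1 of the 6 libraries was left out, was -0.80 with edgeR and -0.82 with DESeq2, and was -0.82 with column 10 added. Only the header placements, which give column 6 a group, moved it beyond the spread between libraries.

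**Figure D4:**
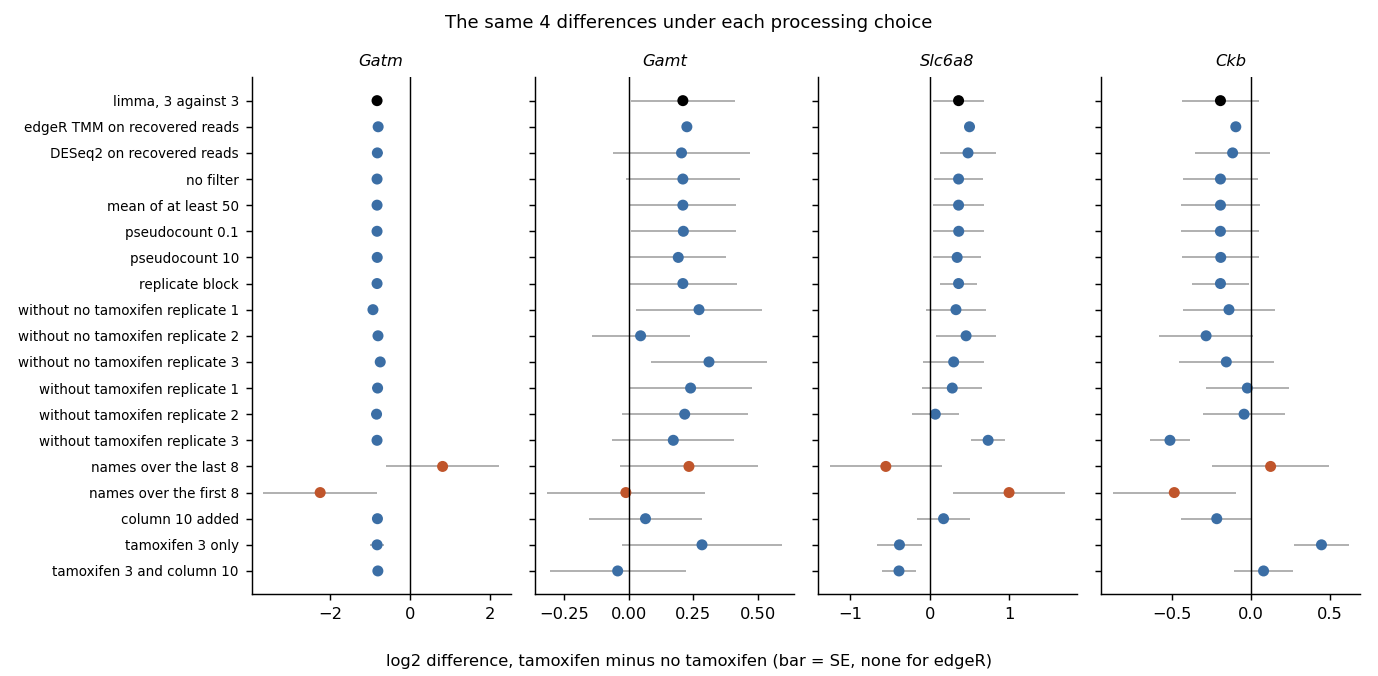
Log2 difference, tamoxifen minus no tamoxifen (horizontal axes, each its own scale; bars are SEs, none for edgeR), of 4 genes under each processing choice (vertical axis). Gatm stays between -0.93 and -0.75 except under the 2 header placements drawn in orange, at 0.81 and -2.25, while Slc6a8 and Ckb change sign when tamoxifen library 3 stands alone, with column 10 beside it, and with the names over the last 8.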

How the data were processed

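RNA of cells sorted as endothelial was depleted of ribosomal RNA and sequenced, per the labels' protocols. The authors deposited 1 table of normalised read counts, a signal unit, with gene symbols as row names. STAR, HTSeq 0.11.2 and DESeq2 are named per the submitters' processing notes, with builds mm10 and hg38 and no roles. In each of the columns used, 100% of values were whole multiples of 1 step within 0.001 reads, so whole reads were recovered for depth and for count tests as alternatives. The header has 9 fields and each line 10. The design of 8 samples was therefore reduced to the 6 columns of certain group, and 1 value column was not used, so the alternative that reads the names from the left lacks 1 library.

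The test was limma 3.58.1 (R 4.3.3) with a trended variance, fitted to log2(value + 1) by group alone in the 13480 genes whose mean reached 10 normalised reads. P-values were adjusted by Benjamini-Hochberg over those genes. This scale understates the fold of low genes. Alternatives used edgeR 4.0.16 and DESeq2 1.42.0 on recovered reads. Scripts were tested on simulated data. The members and lists were chosen with earlier results of these data known. Besides the members, the genes named are those past the threshold and the 3 of lowest p in each pathway list, Ckmt2 and Slc16a12, the 3 of highest r per member, and the most abundant markers, of which a part is printed, and 1 phosphagen gene is not reported here; Arg2, Gldc, Slc7a1 and Phgdh were named after their values were seen. Exon lengths and coordinates (1-based) come from GENCODE M21 on GRCm38, also called mm10, matched by symbol for 20953 of 23337 rows. Counting intervals are exact Poisson at 95% and cover counting error only.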

Additional observations from a re-analysis of the deposited data

Results flagged for a closer look

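Column 6, whose group depends on how the header is read, held more of 3 creatine genes than any of the 3 libraries without tamoxifen. Slc6a8 was at 869 normalised reads there, from 427 reads, 7.55 times the mean without tamoxifen. Ckm was at 20.3 from 10 reads, with an exact Poisson 95% interval of 9.76 to 37.4 that reaches into the 5.38 to 18.2 of the highest library without tamoxifen. Ckmt1 was at 10.2 from 5 reads (3.30 to 23.7), against at most 1 read in a library without tamoxifen. The erythroid markers summed to 91712 normalised reads in the same column and to 245 to 409 without tamoxifen, the skeletal muscle markers to 5808 and to 354 to 369, and the neural markers to 2321 and to 945 to 1668. Of the neural sum, Nes alone was 1103 in column 6 and 842 to 1528 without tamoxifen. The mean log2(normalised reads + 1) over the neural list was 6.13 in column 6, against 2.52 to 2.90 without tamoxifen. The part of these cell types in the Slc6a8, Ckm and Ckmt1 values was not tested.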

How the results depend on the processing

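The count of genes called by limma, 6 higher and 0 lower, ranged from 2 to 973 higher and from 0 to 469 lower when 1 library was left out, with both highest values without tamoxifen library 3. It was 247 higher and 28 lower with DESeq2, 0 higher with names read from the left (the first 8) and 1 lower with column 10 added. In settings chosen after seeing the data it was 28 higher and 63 lower with tamoxifen library 3 alone, assuming that this lone library varies like the 3 without tamoxifen, and 143 and 443 with that library and column 10 as the treated group. Of the members, 1 was called lower, each time Gatm, with DESeq2, with column 10 added and with tamoxifen library 3 and column 10. Leaving out 1 library gave 0 to 1 members higher and 0 to 2 lower. Nothing is read from the calls of members in any setting, since column 10 aside they rest on the values that chose the genes. The replicate number as a block gave 20 higher and 1 lower, and 1 member lower, again Gatm. The numbers are not shown to pair the libraries, since the correlations of same-numbered deviations were 0.195, 0.0364 and 0.345 and not every library matched its own number best, and the block changed no call in the pathway lists.

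With the names over the last 8 and over the first 8 value columns, the log2 differences moved to 0.81 and -2.25 for Gatm and to -0.55 and 1.0 for Slc6a8, and Gamt moved to -0.011 with the first 8. With tamoxifen library 3 alone Slc6a8 was at -0.38 and Ckb at 0.44, and with column 10 beside it Slc6a8 was at -0.39 and Gamt at -0.042. Leave-outs ranged from -0.93 to -0.75 for Gatm, 0.05 to 0.31 for Gamt, 0.07 to 0.74 for Slc6a8 and -0.51 to -0.02 for Ckb. The cause was not tested, beyond the libraries that each setting adds or removes. No gene of the 3 pathway lists was called under any of these settings, and the kinase shares moved by less than the spread between libraries with the other lengths. Depth limits Ckm, Ckmt1 and Ckmt2, which had at most 12 reads in a library.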
